A study of Mus musculus with 6 samples.

Results

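The nuclear subunits of respiratory complexes II to V were followed in RNA sequencing of the mouse heart apex after ischaemia and reperfusion. They were chosen by symbol, as genes of the deposited count table named Sdha to Sdhd (complex II), Uqcr or Cyc1 (complex III), Cox4 to Cox8 (complex IV) and Atp5 (complex V). The rule took 49 of 37620 genes, 4 of complex II, 9 of complex III, 19 of complex IV and 17 of complex V. A single pseudogene ending in -ps was excluded by it, and 5 more with a number after -ps were left out in the same way. Cox6c2, listed as a pseudogene in the annotation used here, has no such ending and stayed in. The rule used no measured value. All animals were wild-type C57/BL6J mice, of an age not given in the sources used here, with 30 min of myocardial ischaemia and 120 min of reperfusion. The DIR group (3 libraries, DIR1 to DIR3) was given dexmedetomidine, a sedative agonist of alpha-2 adrenergic receptors, at 10 µg/kg, 30 min after the vehicle of the alpha-2 antagonist yohimbine, with surgery 20 min after the drug. The IR group (3 libraries, IR1 to IR3) was given both vehicles separately before surgery, with no times given. Infusions went into the tail vein over 10 min. Whether each library stands for its own animal is not stated, and all p-values therefore rest on the spread between libraries, which may be technical.

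The respiratory chain and ATP synthase make most of the ATP of the cardiomyocyte. Complex II, succinate dehydrogenase, links the citric acid cycle to the chain and is built from nuclear-encoded subunits alone. Complexes III (cytochrome bc1), IV (cytochrome c oxidase) and V (ATP synthase) also hold subunits made inside mitochondria, so each depends on both genomes. Several subunits of complexes IV and V come from more than 1 gene. The heart uses muscle isoforms of cytochrome c oxidase such as Cox6a2, Cox7a1 and Cox8b beside the widely expressed Cox6a1, Cox7a2 and Cox8a.

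Libraries held 42.7 to 48.6 M gene counts in DIR and 50.3 to 56.6 M in IR. Levels are given as CPM, counts scaled to library sizes that were adjusted by TMM (trimmed mean of M-values), and as TPM, which also divides by the deposited gene length and covers all genes, mitochondrial ones included. TPM was not adjusted by TMM, and the mitochondrial share differed between the groups. It therefore serves to rank genes, by the deposited lengths, and not to compare DIR with IR. Genes of the mitochondrial genome took 27.1%, 36.9% and 38.2% of gene counts in DIR1, DIR2 and DIR3, against 25.2%, 22.0% and 23.3% in IR1, IR2 and IR3. Reads aligned at more than 1 place made up 31.2%, 39.5% and 39.4% of reads in the DIR libraries, against 31.4%, 28.6% and 28.0% in the IR libraries. IR2 stood apart in Fos, an immediate early gene, at 608 CPM against 34.3 and 39.9 CPM in IR1 and IR3 and 21.8 to 60.1 CPM in DIR. Ventricular cardiomyocyte markers had summed levels of 51386 to 57605 CPM in DIR and 58910 to 70278 CPM in IR, with none of the 11 at 0. Of these, 8 had log2 fold changes below 0 and 3 above. Among the latter, Pln was higher without overlap (4412 to 5881 CPM in DIR, 3611 to 4094 CPM in IR, log2 fold change 0.48). In the marker lists of other cells, fibroblast markers summed to 1051 to 1249 CPM in DIR and 859 to 958 CPM in IR, with 4 of 6 higher. Mural markers summed to 1249 to 1431 CPM in DIR and 932 to 1049 CPM in IR, a sum mostly of Rgs5 (905 to 1163 CPM in DIR, 570.0 to 718 CPM in IR), while 3 of the 5 had log2 fold changes below 0 and the median was -0.15. The remaining lists overlapped between groups, and of their defining markers Ucp1 (adipocyte) and Myh4 (skeletal muscle) were at 0 throughout. The atrial markers Myl7 and Sln reached 11.9 and 11.1 CPM in DIR3 and were at or near 0 in the other 5 libraries. The part of these differences in the results below was not tested.

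Promoters of 5 subunit genes are shown. In each complex this is the member with the smallest p for which RefSeq (GRCm38.p6) gave a window. Added to these is Atp5l, which had the highest fold change among those with a window. Each window runs from 250 bases before the start of the gene to 50 after it, 5′ to 3′ on the strand of the gene. Capitals mark matches on either strand to 4 motifs of factors known to act on respiratory genes: the 10-base core of the NRF1 consensus with 1 free base, TCAAGGTCA (estrogen-related receptors), CCGGAAG (Ets factors such as GABP) and AAGATGGC (YY1).
Sdhd, chr9:50603800-50604099, minus strand: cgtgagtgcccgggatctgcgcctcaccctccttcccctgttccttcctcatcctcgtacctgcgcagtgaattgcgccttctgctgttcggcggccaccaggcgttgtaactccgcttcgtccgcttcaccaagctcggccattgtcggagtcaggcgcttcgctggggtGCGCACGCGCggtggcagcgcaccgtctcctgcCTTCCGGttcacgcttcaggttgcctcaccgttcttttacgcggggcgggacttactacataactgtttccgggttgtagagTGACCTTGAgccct
Uqcr11, chr10:80406772-80407071, minus strand: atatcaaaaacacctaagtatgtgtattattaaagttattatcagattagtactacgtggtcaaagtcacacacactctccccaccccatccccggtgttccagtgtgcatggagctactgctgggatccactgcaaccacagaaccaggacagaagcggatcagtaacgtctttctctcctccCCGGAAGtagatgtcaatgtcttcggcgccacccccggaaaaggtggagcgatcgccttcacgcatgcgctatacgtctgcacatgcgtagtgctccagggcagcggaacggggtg
Cox5b, chr1:36691237-36691536, plus strand: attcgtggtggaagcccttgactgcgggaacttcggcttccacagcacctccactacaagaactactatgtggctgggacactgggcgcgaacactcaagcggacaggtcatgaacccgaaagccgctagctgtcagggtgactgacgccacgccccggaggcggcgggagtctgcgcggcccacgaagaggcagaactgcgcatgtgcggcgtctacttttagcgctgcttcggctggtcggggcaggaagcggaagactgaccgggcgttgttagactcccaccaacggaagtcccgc
Atp5e, chr2:174464052-174464351, minus strand: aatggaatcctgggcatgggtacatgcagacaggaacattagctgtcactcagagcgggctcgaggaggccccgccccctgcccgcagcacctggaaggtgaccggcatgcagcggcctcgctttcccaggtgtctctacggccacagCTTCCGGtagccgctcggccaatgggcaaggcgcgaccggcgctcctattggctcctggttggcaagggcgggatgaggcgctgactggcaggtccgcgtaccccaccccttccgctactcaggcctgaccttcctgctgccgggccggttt
Atp5l, chr9:44920693-44920992, minus strand: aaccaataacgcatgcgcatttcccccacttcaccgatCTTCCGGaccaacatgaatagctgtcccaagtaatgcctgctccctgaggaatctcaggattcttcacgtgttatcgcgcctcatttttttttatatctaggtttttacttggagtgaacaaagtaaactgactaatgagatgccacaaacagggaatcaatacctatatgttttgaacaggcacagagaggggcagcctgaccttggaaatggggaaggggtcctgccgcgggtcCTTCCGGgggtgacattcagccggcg
The Sdhd window held 3 matches, 1 each to the NRF1, estrogen-related receptor and Ets letters, Uqcr11 and Atp5e held 1 Ets match each, Atp5l held 2 Ets matches and the Cox5b window held none. Windows were found for 36 of the 49 genes, 39 windows in all since some genes have several starts. NRF1 letters stood in 10 of the 39 windows (25.6%) and in 4.60% of 32851 RefSeq windows, and Ets letters in 12 (30.8%) and in 8.86%. The estrogen-related receptor letters stood in 2 (5.13%, against 0.423% of all windows) and YY1 letters in 3 (7.69%, against 2.75%). The Ets motif matched both in windows of genes with lower levels after dexmedetomidine, Uqcr11 and Atp5e, and in that of Atp5l, which had a higher one. These matches are a description of letters and not of binding.

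Most nuclear subunits of complexes II to V had lower levels after dexmedetomidine, by a median of 14.3% (log2 fold change, DIR minus IR, -0.22), but no single gene passed in edgeR's quasi-likelihood test. Apart from the scarce Cox6b2, the genes with the lowest log2 fold changes were Atp5k and Atp5e of ATP synthase, Uqcr11 and Uqcrq of the bc1 complex and Cox5b and Cox6a2 of cytochrome c oxidase, with levels 1.56-fold to 1.94-fold lower in DIR. The 7 genes above 0 were Atp5l (0.32), Cox6c (0.16), Atp5j (0.16), Atp5h (0.13), Atp5s (0.08), Uqcrb (0.08) and Uqcrc2 (0.04). In bulk tissue, fewer cells of a type and less RNA per cell cannot be told apart.

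Of the 49 genes, 47 passed the filter on low counts and 2, Cox7b2 and Cox8c, did not. Log2 fold changes were below 0 for 40 of 47, against 49.7% of all 14738 tested genes, whose median was 0.0032. In edgeR 0 of 47 reached an adjusted p of 0.05 (Benjamini-Hochberg over all tested genes), as did 0% of all genes, and the smallest adjusted p among the 47 was 0.111. At an unadjusted p under 0.05, 16 were lower and 0 higher, against 9.03% of all tested genes lower and 12.5% higher. DESeq2 called 7 of the genes at an adjusted p of 0.05, all lower, against 8.54% of all genes in either direction and 2.54% lower. Limma-voom with quality weights called 14, all lower, against 14.3% of all genes in either direction and 5.31% lower. The values of the 3 DIR libraries all lay below those of the 3 IR libraries for 17 of 47 genes, against 12.0% of all tested genes, and all above for none, against 15.6%.

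**Figure D1:**
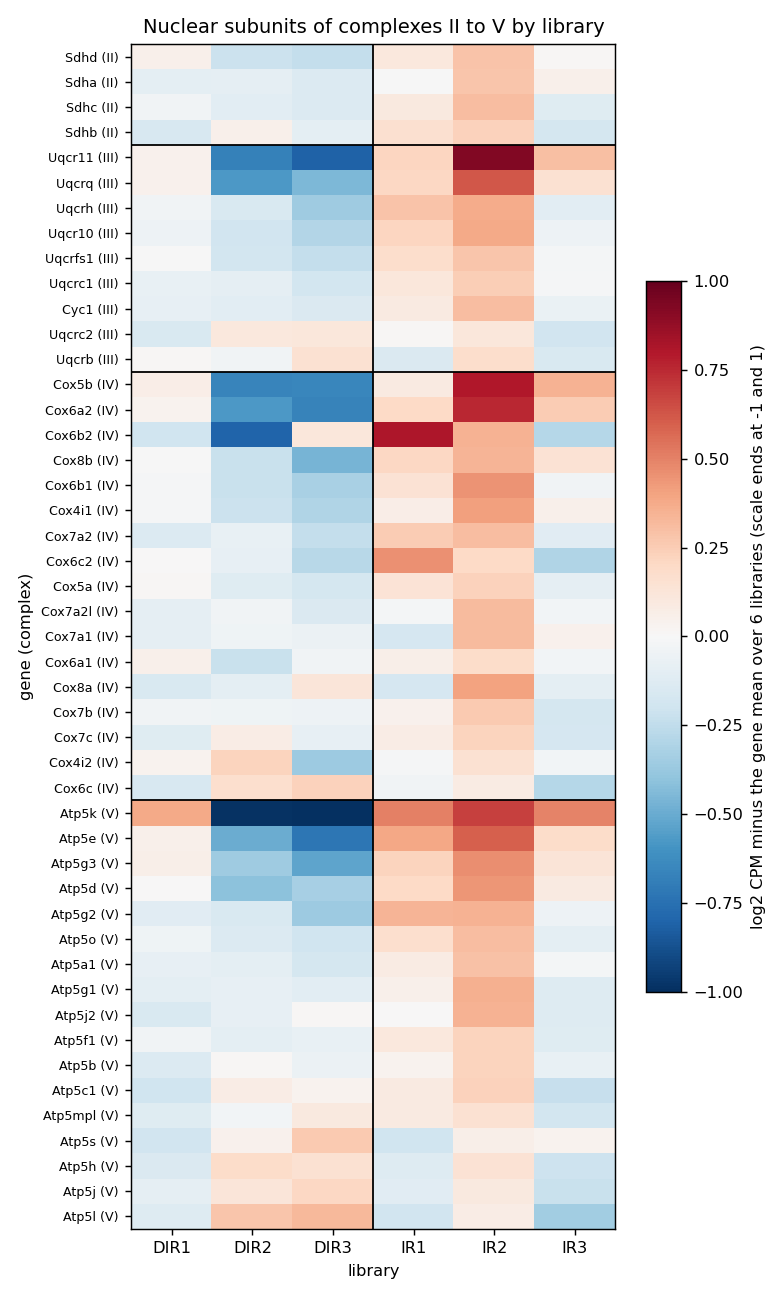
Heatmap of the 47 tested genes by library, DIR left of IR, as log2 CPM minus the mean of the gene over 6 libraries; rows are ordered by complex and fold change, and colours end at -1 and 1. IR2 is the highest of all 6 libraries for 39 of 47 genes. DIR2 and DIR3 are the lowest for the top gene of each block (Sdhd, Uqcr11, Cox5b and Atp5k).

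Libraries within a group differed. IR2 had the highest level of all 6 libraries for 39 of the 47 genes, or 83.0%, against 26.1% of all tested genes. The median deviation of the 47 genes from their mean over libraries was -0.053, -0.099 and -0.15 on the log2 scale in DIR1, DIR2 and DIR3, and 0.092, 0.31 and -0.064 in IR1, IR2 and IR3. At this level IR3 lay among the DIR libraries, so the groups overlapped. Without IR2 the median log2 fold change was -0.13, with 34 of 47 below 0, against 49.5% of all genes. Without IR3 it was -0.30, with 41 of 47 below 0, against 48.7% of all genes, and edgeR called 5 of them, all lower, against 8.31% of all genes in either direction and 2.19% lower. Those were Atp5g2, Atp5e, Uqcr11, Uqcrh and Cox6a2.

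DIR1 was the DIR library nearest to the IR libraries in the genes that separated the groups. Of the 17 genes with no overlap, DIR1 was the highest DIR library for 15, against 26 of all 47 (55.3%) and 38.3% of all tested genes, and for 12 it lay closer to the lowest IR library than to the other 2 DIR libraries. The highest DIR level stood at 88.8% to 99.9% of the lowest IR level across the 17, so the gap was small even where values did not overlap. DIR2 and DIR3 were also the libraries with the largest mitochondrial and multiply aligned shares.

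**Figure D2:**
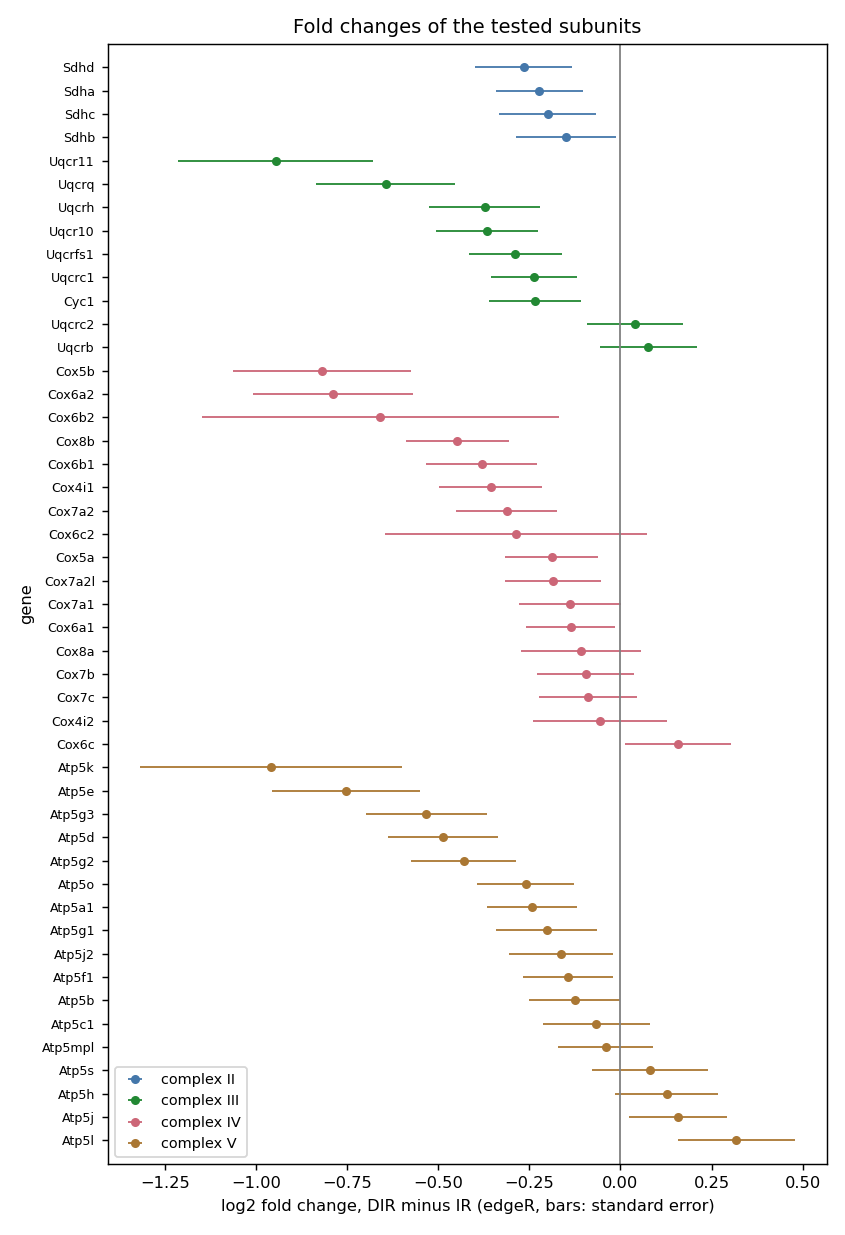
Log2 fold change, DIR minus IR, of the 47 tested genes by complex, with standard errors from edgeR as bars (n = 3 per group). Of the 47, 40 lie left of 0, and Atp5k, Uqcr11, Cox5b, Cox6a2 and Atp5e lie farthest left.

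Complex II showed the narrowest range. Its 4 genes had log2 fold changes of -0.27 to -0.15 (median -0.21), and none passed in edgeR, DESeq2 or limma-voom. Sdha, the flavoprotein that oxidises succinate, measured 1144, 1145 and 1109 CPM in DIR1, DIR2 and DIR3, against 1215, 1482 and 1266 CPM in IR1, IR2 and IR3. These groups did not overlap, and its log2 fold change was -0.22 (SE 0.12, edgeR adjusted p = 0.313). Sdhb, the iron-sulfur subunit, stood at 693, 804 and 726 CPM in DIR and 867, 911 and 686 CPM in IR, with IR3 below all DIR libraries. The membrane anchor Sdhd averaged 288 ± 33.3 CPM in DIR and 346 ± 34.1 CPM in IR (SD, n = 3 each), with DIR1 above IR3. The other anchor, Sdhc, had 427, 407 and 398 CPM in DIR and 469, 543 and 403 CPM in IR, again with overlap. By TPM, which compares genes per length, Sdhb and Sdha had the highest levels of this complex, at 619 and 548 TPM in DIR and 805 and 750.1 TPM in IR. Without IR2 the 4 log2 fold changes lay between -0.19 and -0.07, with a median of -0.11.

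Complex III had the lowest median, -0.29, and its members differed widely. Of its 9 genes, 7 were below 0, against 49.7% of all tested genes. The groups did not overlap for 5, all lower, against 12.0% of all tested genes. Uqcr11, a very small membrane subunit, measured 162, 98.5 and 90.1 CPM in DIR1, DIR2 and DIR3, against 183, 299 and 194 CPM in IR1, IR2 and IR3. DIR2 and DIR3 were the low libraries and IR2 the high one, and DIR1 lay just below the IR range. The log2 fold change of Uqcr11 was -0.95 (SE 0.27, edgeR adjusted p = 0.117, DESeq2 adjusted p = 0.00384). Uqcrq, a small subunit next to cytochrome b, measured 438, 285 and 312 CPM in DIR and 490.3, 654 and 473 CPM in IR, again with no overlap. Its log2 fold change was -0.64 (SE 0.19, edgeR adjusted p = 0.117, DESeq2 adjusted p = 0.0195). Uqcr10 averaged 221 ± 18.7 CPM in DIR and 285 ± 42.1 CPM in IR, and Uqcrh, the hinge protein at the cytochrome c1 site, 350.0 ± 38.6 and 453 ± 75.9 CPM in the same order (SD, n = 3 each). Both passed in limma-voom (adjusted p = 0.0343 and 0.0348) and neither in edgeR (adjusted p = 0.175 and 0.197).

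The redox and core subunits of complex III had smaller differences. Uqcrfs1, the Rieske iron-sulfur protein, had a log2 fold change of -0.29, and Cyc1, which carries the haem of cytochrome c1, of -0.23. Cyc1 measured 764, 751 and 730.3 CPM in DIR and 863, 1003 and 774 CPM in IR, so that the groups did not overlap by a narrow margin. The core protein gene Uqcrc1 was at -0.24 (SE 0.12) and Uqcrc2 at 0.04 (SE 0.13), but once corrected for GC and length they were at 0.03 and -0.28. Uqcrb, the quinone-binding protein, was at 0.08 (SE 0.13), or -0.28 with that correction, and 43.4% of its 50-base words also occur in other genes, so its counts are uncertain. By TPM with the deposited lengths, the most abundant members of this complex were Uqcrc1, at 1351 TPM in DIR and 1863 TPM in IR, and Cyc1, at 1179.5 TPM in DIR and 1620.5 TPM in IR.

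**Figure D3:**
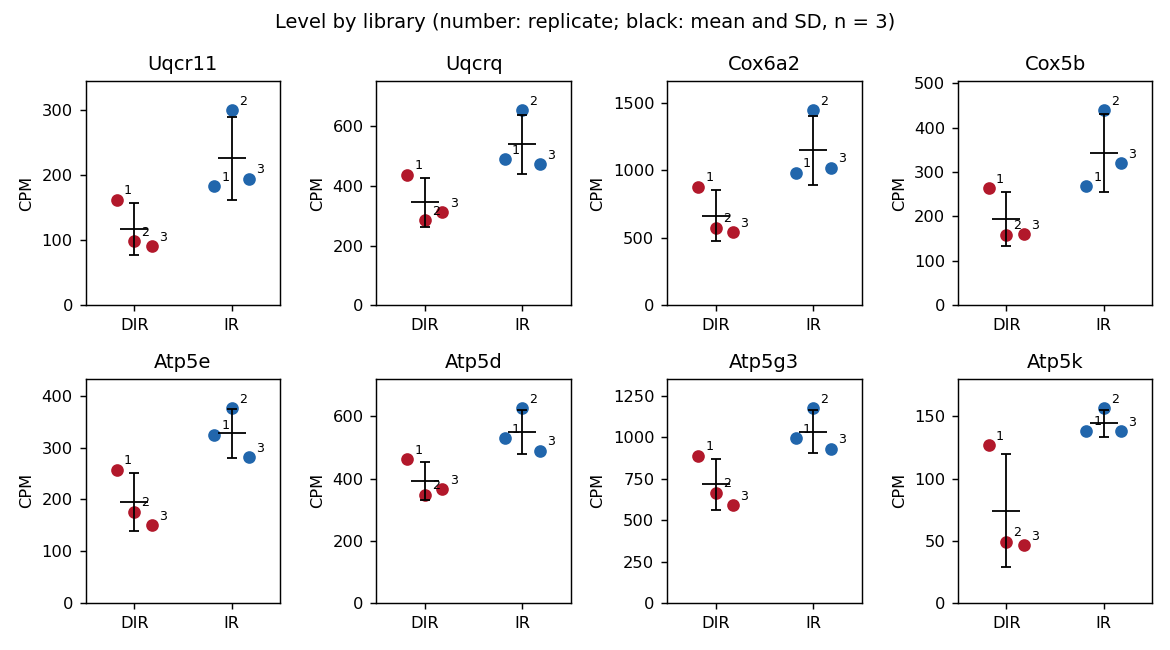
CPM of 8 genes in each library, DIR left of IR, with replicate numbers beside the points and the mean and SD (n = 3) in black. The genes are the 7 that DESeq2 called and Atp5k, which had the lowest log2 fold change, so their values decided the choice. Groups do not overlap in any panel, against 17 of all 47 tested subunit genes. DIR1 sits above DIR2 and DIR3 in each, against 26 of all 47.

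Complex IV held the muscle and the widely expressed isoforms. Of its 17 tested genes, 16 were below 0, against 49.7% of all tested genes, with a median of -0.19 (-0.12 without IR2). Cox6a2, the heart and muscle form of subunit VIa, measured 879, 576 and 540.0 CPM in DIR1, DIR2 and DIR3, against 982, 1446 and 1020.2 CPM in IR1, IR2 and IR3. Its log2 fold change was -0.79 (SE 0.22, edgeR adjusted p = 0.113, DESeq2 adjusted p = 0.00713). Cox5b, a zinc-binding subunit on the matrix side, stood at 263, 159 and 160.1 CPM in DIR and 268, 439 and 320.2 CPM in IR, a log2 fold change of -0.82 (SE 0.25, edgeR adjusted p = 0.123, DESeq2 adjusted p = 0.00932). In both genes DIR2 and DIR3 were low, IR2 was high and DIR1 was next to IR1. Sequence shared with other genes made up 25.9% of the 50-base words of Cox5b and 3.33% of those of Cox6a2.

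Cox4i1, the main form of subunit IV, had 2833 TPM in DIR and 4209 TPM in IR on average. This was the highest TPM of the 49 genes with the deposited lengths, 679 bases for Cox4i1 and 4237 for Atp5b. Their principal transcripts have 765 and 1916 bases, so this rank depends on the length used. On the CPM scale Cox4i1 measured 1133, 983 and 929 in DIR and 1194, 1521 and 1182 in IR, a log2 fold change of -0.36 (SE 0.14, edgeR adjusted p = 0.186). Of its 50-base words, 14.7% also lie in other genes, among them the overlapping Emc8. Cox8b, the muscle form of subunit VIII, averaged 264 ± 41.8 CPM in DIR and 360.2 ± 25.3 CPM in IR (SD, n = 3 each) without overlap, and passed in limma-voom (adjusted p = 0.0239) but not in DESeq2 (0.0532) or edgeR (0.126). Cox6b1 was at -0.38 and Cox7a2 at -0.31, each with overlap, and Cox7a1, the muscle form of subunit VIIa, at -0.14. Cox7a2l, a factor that joins complexes III and IV into supercomplexes rather than a usual oxidase subunit, was at -0.19 (SE 0.13). Cox6c was the 1 gene of this complex above 0, at 0.16 (SE 0.15). Cox7b and Cox7c, 2 further structural subunits, were at -0.10 and -0.09, and 53.0% of the 50-base words of Cox7c occur in other genes, as do 32.0% of those of Cox5a (-0.19).

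Isoforms expressed mainly outside the heart were scarce. Cox4i2, a lung form induced by low oxygen, averaged 9.52 ± 1.89 CPM in DIR and 9.91 ± 0.690 CPM in IR (SD, n = 3 each). The testis form Cox6b2 stood at 0.385 to 0.771 CPM in DIR and 0.588 to 1.30 CPM in IR. Cox6c2 is listed as a pseudogene in the annotation used here and counts among the tested genes of complex IV only because its symbol matches. It shares 52.8% of its 50-base words with Cox6c and was at 1.00 to 1.25 CPM in DIR and 1.00 to 1.72 CPM in IR. Cox7b2 had 5, 0 and 0 counts in DIR1, DIR2 and DIR3, against 10, 0 and 0 in IR1, IR2 and IR3. Cox8c had 0 counts in all 6 libraries, which allows at most 3 counts in each, or 0.0512 to 0.0771 CPM by counting error alone.

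Ratios between isoforms were taken within each library from counts per base of deposited length. Cox6a2 exceeded Cox6a1 by log2 ratios of 3.79, 3.45 and 3.17 in DIR1, DIR2 and DIR3, against 3.94, 4.37 and 4.08 in IR1, IR2 and IR3. This ratio was lower in all 3 DIR libraries than in any IR library, with means of 3.47 ± 0.31 and 4.13 ± 0.22 (SD, n = 3 each), a difference of -0.66. Cox6a1 itself measured 56.2 to 68.0 CPM in DIR and 64.3 to 74.5 CPM in IR. The ratio of Cox8b to Cox8a averaged 2.75 ± 0.37 in DIR and 3.12 ± 0.22 in IR and overlapped, as did that of Cox7a1 to Cox7a2, at 1.18 ± 0.084 in DIR and 1.00 ± 0.30 in IR (SD, n = 3 each). Cox4i2 stood below Cox4i1 by log2 ratios of -7.05, -6.67 and -7.17 in DIR and -7.18, -7.37 and -7.18 in IR, with DIR3 barely above IR1. The ratio of Cox6b2 to Cox6b1 rested on few counts and overlapped, with a mean of -9.21 in DIR and -8.96 in IR.

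**Figure D4:**
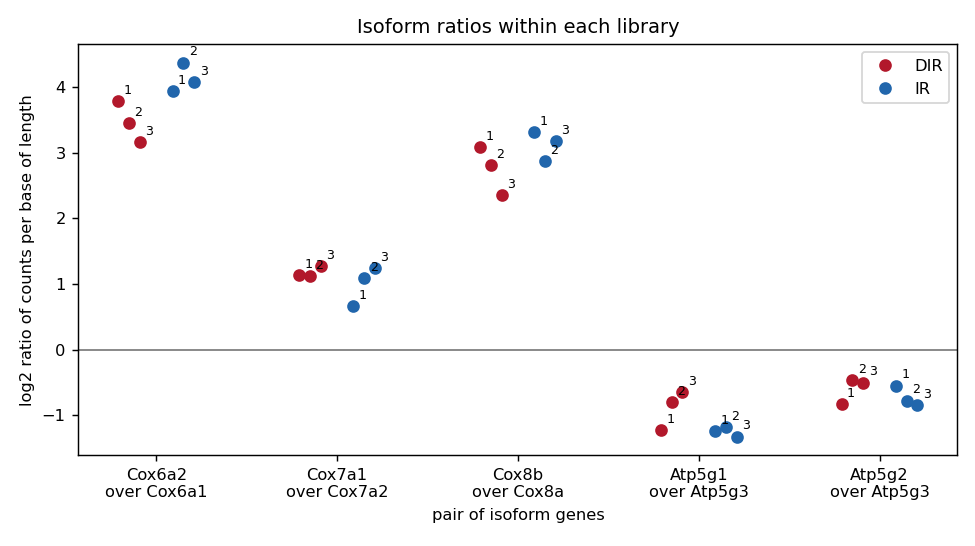
Log2 ratio of counts per base of length for 5 pairs of isoform genes, 1 point per library with its replicate number, DIR left of IR. For Cox6a2 over Cox6a1 the DIR points (3.17 to 3.79) lie below the IR points (3.94 to 4.37), and the groups overlap for Cox7a1 over Cox7a2, Cox8b over Cox8a, Atp5g1 over Atp5g3 and Atp5g2 over Atp5g3.

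Complex V spanned the range from Atp5k to Atp5l, the lowest and the highest log2 fold change of the 47 genes. Of its 17 genes, 13 were below 0, against 49.7% of all tested genes, with a median of -0.16 (-0.06 without IR2). Of the most abundant genes, those of the catalytic head, Atp5a1 was lower without overlap and Atp5b overlapped. Atp5a1 (alpha) measured 3791, 3745 and 3548 CPM in DIR1, DIR2 and DIR3, against 4253, 4913 and 3947 CPM in IR1, IR2 and IR3, a log2 fold change of -0.24 (SE 0.12, edgeR adjusted p = 0.290). Atp5b (beta) had 4073, 4519 and 4310.1 CPM in DIR and 4588, 5238 and 4246 CPM in IR, with overlap and a log2 fold change of -0.13 (SE 0.12). By TPM, which ranks genes and does not compare the groups, Atp5a1 and Atp5b were the most abundant of this complex. They stood at 2218 and 1899 TPM in DIR and 3068 and 2436 TPM in IR.

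In the central stalk, Atp5e (epsilon) measured 257, 176 and 150.2 CPM in DIR and 325, 377 and 282 CPM in IR, with no overlap. Its log2 fold change of -0.75 (SE 0.20) had the smallest edgeR adjusted p of the 47 genes, 0.111, and a DESeq2 adjusted p of 0.00723. Atp5d (delta) stood at 462, 348 and 366 CPM in DIR and 530.3, 627 and 490.0 CPM in IR (log2 fold change -0.49, SE 0.15, edgeR adjusted p = 0.122, DESeq2 adjusted p = 0.0431). Atp5c1 (gamma), which turns between them and the head, was at -0.07 (SE 0.15), with 859 to 1043 CPM in DIR and 842 to 1160.0 CPM in IR. So 2 of the 3 stalk genes passed in DESeq2, against 2.54% of all genes called lower, while the third overlapped broadly. EdgeR called neither, and once corrected for GC and length Atp5e was at -0.42 and Atp5d at -0.16.

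The rotor ring of ATP synthase is made of identical c subunits that come from 3 genes. Atp5g3 measured 888, 666 and 592 CPM in DIR and 995, 1177 and 931 CPM in IR, a log2 fold change of -0.53 (SE 0.17, edgeR adjusted p = 0.126, DESeq2 adjusted p = 0.0399). Atp5g2 was at -0.43 (SE 0.14), but 87.4% of its 50-base words also occur in other genes, and Atp5g1 was at -0.20 (SE 0.14). Atp5g1 averaged 859 ± 7.43 CPM in DIR and 988 ± 171 CPM in IR (SD, n = 3 each), with overlap. The log2 ratio of Atp5g1 to Atp5g3 was -1.22, -0.79 and -0.64 in DIR and -1.24, -1.17 and -1.32 in IR, so DIR1 lay within the IR range and DIR2 and DIR3 above it. That of Atp5g2 to Atp5g3 overlapped throughout (-0.83 to -0.46 in DIR, -0.84 to -0.54 in IR). The level of these ratios depends on the length used: over all 6 libraries Atp5g1 to Atp5g3 averaged -1.06 with the deposited lengths and -2.60 with those of the principal transcripts.

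Genes of the peripheral stalk and the membrane part had values on both sides of 0. Atp5o (OSCP) was at -0.26, Atp5f1 (subunit b) at -0.14, Atp5h (subunit d) at 0.13 and Atp5j (coupling factor 6) at 0.16, all with overlap between the groups. Counts of Atp5o, Atp5f1 and Atp5h are uncertain, since 50.3%, 38.7% and 47.9% of their 50-base words also occur in other genes. Among the small membrane subunits, Atp5k (subunit e) and Atp5l (subunit g) were singled out after their values were seen. Atp5k measured 127, 49.3 and 46.6 CPM in DIR1, DIR2 and DIR3, against 139, 157 and 138 CPM in IR1, IR2 and IR3. DIR2 and DIR3 thus held 35.8% and 33.8% of the lowest IR level and DIR1 92.0%. Its log2 fold change was -0.96 (SE 0.36, edgeR adjusted p = 0.178, limma-voom adjusted p = 0.0139, DESeq2 adjusted p = 0.235). Without DIR1 it was -1.59, and Atp5k was then the 1 gene of the 47 that edgeR called (adjusted p = 0.0221). Atp5l had 276, 364 and 376 CPM in DIR and 263, 316 and 236 CPM in IR, a log2 fold change of 0.32 (SE 0.16, edgeR adjusted p = 0.279), and shared 84.8% of its 50-base words with other genes. Atp5j2 (subunit f) was at -0.16 and Atp5mpl, a small proteolipid, at -0.04. Atp5s, known as factor B and not counted among the core subunits, averaged 17.8 ± 2.80 CPM in DIR and 16.8 ± 1.63 CPM in IR (SD, n = 3 each).

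The share of counts was also lower in DIR. It weights genes by their counts and was not adjusted by TMM. On this scale IR3 lay above all DIR libraries, unlike in the median deviations given earlier. All 49 genes together held 2.96%, 2.53% and 2.41% of gene counts in DIR1, DIR2 and DIR3, against 3.24%, 3.61% and 3.22% in IR1, IR2 and IR3. Of counts outside the mitochondrial genome they held 4.06%, 4.01% and 3.89% in DIR and 4.33%, 4.63% and 4.19% in IR. The groups did not overlap on either scale, and the difference was -0.72 percentage points of all counts and -0.40 of nuclear counts. By complex, the shares of all counts averaged 0.246% ± 0.025 in DIR and 0.309% ± 0.016 in IR for complex II, 0.456% ± 0.060 and 0.594% ± 0.036 for complex III, 0.501% ± 0.078 and 0.676% ± 0.063 for complex IV, and 1.43% ± 0.13 and 1.78% ± 0.11 for complex V, in the same order (SD, n = 3 each).

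Fold changes were related to GC content across all tested genes and, less closely, among the subunit genes. Spearman's rho between log2 fold change and the GC content of the principal transcript was -0.64 over 14329 tested genes and -0.39 over the 47 subunit genes, as a description across genes that share these 6 libraries. Tested genes were split into 5 bins of equal size by rising GC, and their medians were 0.47, 0.15, -0.02, -0.15 and -0.30 on the log2 scale. The subunit genes in these bins had medians of 0.06, -0.15, -0.24, -0.31 and -0.30 (4, 8, 15, 12 and 8 genes). With each library's trend over GC and length removed, their median was -0.14, against -0.03 for all genes, with 34 of 47 below 0, against 54.7% of all genes.

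Among the genes with the lowest uncorrected values, corrected log2 fold changes ran from -0.78 to 0.03. They were lowest for Cox5b (-0.78), Atp5k (-0.68), Uqcrq (-0.64), Cox6a2 (-0.56), Uqcr11 (-0.48), Atp5e (-0.42) and Atp5g3 (-0.41). Higher values were those of Uqcrh (-0.22), Cox6b1 (-0.20), Atp5d (-0.16), Atp5g2 (-0.08), Cox8b (-0.06), Uqcr10 (0.02) and Cox4i1 (0.03). Complexes II and III had medians of -0.27 and -0.28 with the correction, and complexes IV and V of -0.10 and -0.12. The widely expressed isoforms Cox6a1 and Cox8a stood at 0.32 and 0.38. Of the genes above 0 without the correction, Uqcrc2, Uqcrb and Atp5s were at -0.28, -0.28 and -0.67 with it. None of the 47 passed in edgeR with the correction.

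**Figure D5:**
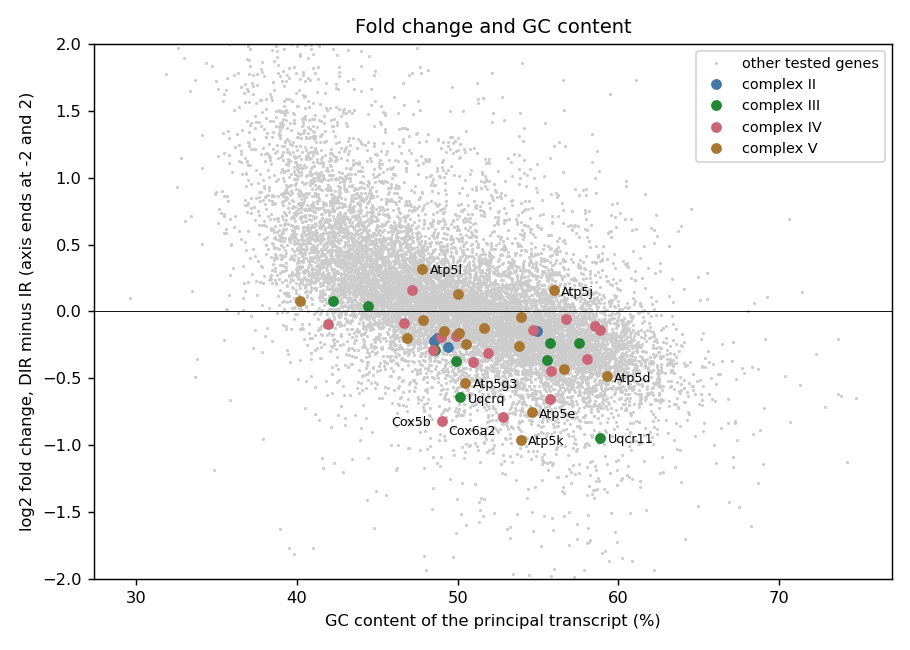
Log2 fold change, DIR minus IR, against the GC content of the principal transcript for 14329 tested genes (grey) and the 47 subunit genes (coloured by complex); the vertical axis ends at -2 and 2. The grey cloud is lower at higher GC, and Cox5b, Uqcrq and Cox6a2 lie in its lower part at 49.0% to 52.8% GC, with other genes below them.

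Partner genes of the same complexes had other values. The 6 mitochondrially encoded partners, mt-Cytb, mt-Co1, mt-Co2, mt-Co3, mt-Atp6 and mt-Atp8, were all above 0, with a median log2 fold change of 0.76, and 4 were higher without overlap, against 15.6% of all tested genes. EdgeR called none of them. Levels were 92957 to 174485 CPM for mt-Co1, but 76.5 to 296 CPM for mt-Co2, mt-Co3 and mt-Atp6 and 0.343 to 1.82 CPM for mt-Atp8. The genes without overlap included mt-Co2, mt-Atp6 and mt-Atp8. Multiply aligned reads were not counted, and their part in these levels was not tested. The cytochrome b gene mt-Cytb measured 40450.0, 63456 and 60806 CPM in DIR and 37088, 31543 and 31983 CPM in IR (log2 fold change 0.71, DESeq2 adjusted p = 0.0074). The 6 genes had a corrected median of -0.08. Of 43 assembly factors and cytochrome c genes listed, 40 were tested, 21 below 0 and 19 above, with a median of -0.01 and none past edgeR's threshold. The 4 with the smallest p were the haem lyase gene Hccs (log2 fold change 0.49), the Rieske protein chaperone gene Lyrm7 (0.49), Higd2a, which acts in oxidase assembly (-0.76), and the copper chaperone gene Cox11 (-1.08). DESeq2 called Hccs higher and Higd2a and Cox11 lower (adjusted p = 0.0380, 0.0193 and 0.0464). Among all genes it called 8.54% in either direction and 2.54% lower.

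Nuclear complex I subunits were also mostly lower, with 35 of 39 tested genes below 0, against 49.7% of all genes, a median of -0.30 (-0.14 with the GC and length correction), and 12 lower without overlap, against 12.0% of all genes. Among carriers that supply ATP synthase, the adenine nucleotide carrier gene of muscle, Slc25a4, measured 3371, 2713 and 2678 CPM in DIR and 3546, 4871 and 3815 CPM in IR (log2 fold change -0.48, SE 0.16, edgeR adjusted p = 0.131). The other 6, Slc25a3, Slc25a5, Vdac1, Vdac2, Vdac3 and Ckmt2, lay between -0.11 and 0.07. Usmg5, a small ATP synthase subunit whose symbol here falls outside the rule, had 266 to 375 CPM in DIR and 226 to 305 CPM in IR (log2 fold change 0.27, SE 0.17).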

How the data were processed

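Messenger RNA was selected on poly-T beads from 1 µg of RNA per sample and prepared with an NEBNext Ultra kit, per the labels' protocols. The authors deposited raw counts per gene for 6 libraries, with gene lengths in bases as another column. The submitters' processing notes name Trim Galore, HTSeq and, as build, mm9; for the aligner, annotation, strand setting and tool versions, sources used here give nothing. Without stated strand, reads of overlapping genes (for example Cox4i1 and Emc8, or Atp5j and Gabpa) cannot be told apart. Of 37620 genes, 32897 had a symbol in GENCODE M21 (GRCm38). Another 5 summary rows stayed out of all totals, among them multiply aligned reads (28.0% to 39.5% of reads).

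The main test was edgeR 4.0.16 in R 4.3.3 (robust quasi-likelihood fit, filterByExpr, TMM), with 14738 genes left after the filter and p adjusted by Benjamini-Hochberg; standard errors are the log2 fold change over the root of F. Members and lists were chosen with earlier results of these data known. Named genes are, in each complex, the 4 with the smallest p and the 2 with the highest TPM. All tissue isoforms and c subunit genes, and genes below the filter, were added to these. Further genes given with values, such as Atp5k, Atp5l and Uqcrb, fell outside this rule. They are not among the 29 named genes whose signs are followed across the alternatives. Ratios used a prior count of 0.5, and deviations of log2 CPM one of 2. The GC and length correction (mgcv 1.9.3) used the APPRIS principal transcript of M21 and an offset per library. Shared sequence was counted as 50-base words found in M21 transcripts of other genes; the read length is not given. Alternatives were DESeq2 1.42.0, limma-voom (limma 3.58.1), other filters and scalings, a replicate block and leaving out each library. The fits were tested on simulated counts with known changes. No 2 libraries agreed within sampling noise (chi-square per degree of freedom 31.2 to 165 within groups). Counting limits cover counting error only.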

Additional observations from a re-analysis of the deposited data

How the results depend on the processing

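Median log2 fold changes of all 4 complexes stayed below 0 in every alternative tried, within 1 SD between libraries, but single genes were called in few of them. Calls over all genes numbered 0 in edgeR, 406 without a filter, 1201 in DESeq2, 2107 in limma-voom and 0 to 1251 when a library was left out (7 without DIR1, 5 without DIR2, 1251 without IR3). Calls among the subunits numbered 0 in edgeR, 7 in DESeq2, 14 in limma-voom and 0 to 5 without a library (1 without DIR1, 5 without IR3). Same-numbered libraries deviated together with correlations of -0.055, 0.036 and 0.15, so the numbers are not taken to pair them. With a replicate block, edgeR called 636 genes, among them 1 subunit, Atp5e, and with the block and the GC and length correction 75, none of them a subunit. DIR3 and IR3 correlated best with each other (0.15), DIR1 with IR2 (0.15) and DIR2 with IR2 (0.036).

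Of 29 named genes, signs turned under the GC and length correction, without and with the block, for Cox4i1 (0.035 and 0.04), Cox4i2 (0.30 and 0.28), Cox6a1 (0.32 and 0.32), Cox7a1 (0.22 and 0.23), Cox8a (0.38 and 0.36), Sdhb (0.080 and 0.078), Uqcr10 (0.016 and 0.016) and Uqcrc1 (0.028 and 0.027). With GC of the longest transcript and the deposited length, an alternative chosen after seeing the data, they turned for Atp5g2 (0.17), Cox4i1 (0.065), Cox4i2 (0.31), Cox6a1 (0.43), Cox7a1 (0.22), Cox8a (0.37), Cyc1 (0.25) and Sdhb (0.011). In limma-voom Cox7a1 was at 0.0056 and Cox8a at 0.045. Leaving out a library gave -0.19 to 0.091 for Cox4i2 and -0.22 to 0.092 for Cox8a. The cause was not tested. As shares of nuclear counts alone, differences were -0.031 points for complex II, -0.088 for complex III, -0.13 for complex IV and -0.15 for complex V. For all 49 genes the difference was -0.40 points. Depth limits only the genes with about 1 CPM or less, Cox6b2, Cox6c2, Cox7b2 and Cox8c.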

Other observations

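The subunits e and g of ATP synthase sit side by side in its membrane part, and neither transcript passed in edgeR (log2 fold changes -0.96 and 0.32, adjusted p = 0.178 and 0.279). The log2 ratio of Atp5k to Atp5l, a pair chosen after the values were seen, was -1.39, -3.15 and -3.28 in DIR1, DIR2 and DIR3, against -1.19, -1.28 and -1.04 in IR1, IR2 and IR3. DIR2 and DIR3 stood apart from the other 4 libraries, and DIR1 lay next to the IR range. Atp5k had 53.9% GC and Atp5l 47.8%, and the counts of Atp5l are uncertain because of its shared sequence. The 6 pseudogene rows named after Atp5k, Atp5l and Uqcrh held 0 to 46 counts per library.

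Within complex V, log2 fold changes of transcripts for parts that are built into the same enzyme ranged from -0.96 to 0.32, and those of complex II from -0.27 to -0.15. The number of genes, 17 against 4, also differs between these complexes, and the difference in range was not tested.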
